A study of Mus musculus with 7 samples.

Results

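The genes described here are 8 genes of the sterol pathway, chosen from the 35498 genes of the annotation. They are the enzyme genes Hmgcs1, Idi1, Fdps, Fdft1, Sqle, Cyp51 and Hsd17b7, and Insig1, which encodes a regulator of the pathway. They were chosen by name, with results of the comparison between knockout and wild type already known, so their differences between genotypes are given as a description and without a test. All 8 had enough reads to enter the fit of 14238 genes.

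RNA was taken from the bone marrow of female mice, all 5 to 6 months old, that were either null for Aim2 (KO, 3 libraries) or wild type (WT, 4 libraries). No treatment is named, and the labels do not give the strain, the way the allele was made or the deleted part of the gene. Nor do they say whether the libraries are separate mice, so their spread, and p-values that rest on it, may be technical. Marrow is a mixture of cell types, in which fewer cells of a type and less RNA per cell cannot be told apart.

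Cholesterol is built from acetyl-CoA through mevalonate, isoprenoid units, squalene and lanosterol, and each dividing cell needs it for new membranes. When sterol in the endoplasmic reticulum runs low, the transcription factor SREBP-2 (gene Srebf2) is carried to the Golgi, cut free and sent to the nucleus, where it raises the genes of nearly the whole pathway together. Insig1 encodes the protein that holds SREBP and its escort Scap in the endoplasmic reticulum, and is itself a target of SREBP. Hsd17b7 encodes the reductase of a late step, in which the 3-keto group left after removal of a methyl group at C4 is turned back into a hydroxyl. The same protein can also reduce estrone to estradiol, which gives it its name.

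The genes lie on 6 chromosomes (GRCm38, GENCODE M21). Hmgcs1 (119690379 to 119708260, plus strand) and Idi1 (8885501 to 8892451, plus strand) are both on chromosome 13. Cyp51 (4081145 to 4104746, minus strand) and Insig1 (28071363 to 28078662, plus strand) are on chromosome 5. Fdps is on chromosome 3 (89093588 to 89101959, minus strand), Fdft1 on chromosome 14 (63145150 to 63179578, minus strand) and Sqle on chromosome 15 (59315077 to 59331192, plus strand). Hsd17b7 is on the minus strand of chromosome 1 (169949535 to 169969241), 3.4 Mb from Aim2 when the lower coordinates are compared. It is the only one of the 8 on the chromosome of the deleted gene, and no other annotated gene overlaps it.

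Promoter sequence was matched by symbol for 5 of the 8 genes, not for Sqle, Fdps and Fdft1 (RefSeq, GRCm38.p6). The stretches of Hsd17b7 (chr1:169969242-169969455, minus strand), Hmgcs1 (chr13:119690101-119690350, plus strand) and Insig1 (chr5:28071162-28071362, plus strand) are shown, because they are the ones that hold a searched motif upstream of both the RefSeq and the GENCODE start. Capitals mark the motifs TCACNNCAC, CCAAT and CACGTG, searched on both strands. The first is a loosened form of the classical sterol regulatory element, with any base allowed at N, so a match need not be that element. The second has the letters of the site of NF-Y, a factor that works beside SREBP, and the third those of an E-box.
Hsd17b7: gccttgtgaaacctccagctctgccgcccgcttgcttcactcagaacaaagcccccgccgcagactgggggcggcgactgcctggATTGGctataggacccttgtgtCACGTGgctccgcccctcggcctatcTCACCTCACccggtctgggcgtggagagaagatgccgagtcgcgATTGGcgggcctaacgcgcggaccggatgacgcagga
Hmgcs1: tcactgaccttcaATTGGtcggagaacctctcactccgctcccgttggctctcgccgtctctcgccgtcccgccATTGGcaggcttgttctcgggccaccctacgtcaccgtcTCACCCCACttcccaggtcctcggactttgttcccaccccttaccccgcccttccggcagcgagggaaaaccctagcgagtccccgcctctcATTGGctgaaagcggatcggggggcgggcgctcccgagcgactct
Insig1: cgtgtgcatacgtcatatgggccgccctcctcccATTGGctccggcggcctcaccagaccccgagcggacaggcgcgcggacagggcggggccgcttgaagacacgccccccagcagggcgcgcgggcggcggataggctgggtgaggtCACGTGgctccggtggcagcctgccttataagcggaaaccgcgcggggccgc

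In windows of 300 bases, from 250 before to 50 after the RefSeq start, TCACNNCAC was found in 2 of the 5 promoters, Hsd17b7 (as TCACCTCAC, 117 bases upstream of the start) and Hmgcs1 (as TCACCCCAC, 137 bases upstream). It was held by 3.77% of all 32851 such promoters. CCAAT was found in all 5 windows, against 37.4% of promoters, and those of Idi1 and Cyp51 lay downstream of the GENCODE start and are not printed. CACGTG was found in Hsd17b7 and Insig1, against 7.15% of promoters. No motif overlapped another in the 3 printed stretches. A match of letters says nothing of whether a factor binds there, and the motifs were chosen after the sequences had been read.

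The libraries held 20300468 to 21099972 estimated reads. Aim2 had 157, 47 and 59 reads in KO libraries 1 to 3, and 601, 573, 535 and 533 in WT libraries 1 to 4. KO library 1 thus kept 26.5% of the WT mean of Aim2 on the CPM scale, against 8.11% and 9.58% in the other KO libraries. CPM here are reads scaled by a library size that is corrected with a scaling factor per library (TMM). Levels are thereby made comparable between libraries, and the sum over all genes is not the same in each. The coding transcript Aim2-204 had 95.29 estimated reads in KO library 1, 0 in KO libraries 2 and 3, and 404.09 to 524.32 in WT. Why KO library 1 alone of the KO libraries held this transcript was not tested. KO library 1 also held the least signal of 8 skeletal muscle genes, with a summed level of 63.8 CPM against 828 to 6477 CPM in the others. WT library 1 had the largest share of haemoglobin reads, 19.9% against 11.3 to 15.6%. The fold changes of the 8 genes are therefore also given without KO library 1.

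Hsd17b7 was higher in every KO library than in any WT library, while the other 7 genes overlapped between the genotypes. Its level was 9.90, 8.12 and 6.88 CPM in KO libraries 1 to 3, and 4.34, 5.48, 5.09 and 4.74 CPM in WT libraries 1 to 4. The lowest KO library thus lay above the highest WT library, and the WT libraries stood closer together than the KO libraries. Means, here and below ± SD, were 8.30 ± 1.52 CPM in KO (n = 3) and 4.91 ± 0.485 CPM in WT (n = 4). The ratio was 1.69, or 0.76 ± 0.15 as a log2 fold change of KO over WT with its SE. Behind these values stand 152 to 211 reads per KO library and 81 to 113 per WT library. In TPM, which also corrects for length, the levels were 2.64, 2.27 and 1.93 in KO and 0.969, 1.43, 1.49 and 1.10 in WT, again without overlap. Without KO library 1, the highest, the log2 fold change was 0.61 ± 0.15 (SE).

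**Figure D1:**
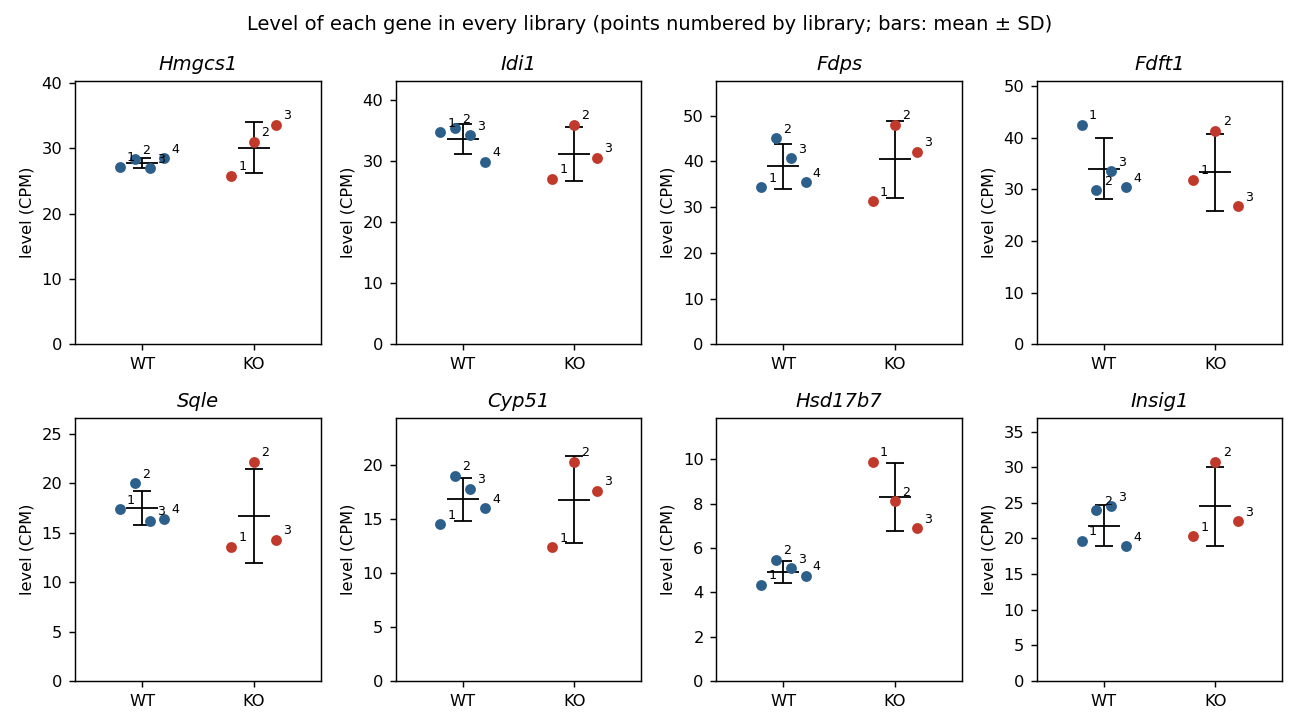
Level in CPM (vertical axis, from 0) of each of the 8 genes in 4 WT (blue) and 3 KO (red) libraries; points carry the library number, and black bars give the mean ± SD. Hsd17b7 is at 6.88 to 9.90 CPM in KO and 4.34 to 5.48 CPM in WT, and in the other panels the genotypes overlap.

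Of the 8 genes, 1 had libraries that did not overlap in the direction of higher KO, Hsd17b7, and 0 in the other direction. Among all tested genes 6.95% were higher in KO without overlap and 5.94% lower. With the quasi-likelihood test of edgeR, 0 of the 8 passed an adjusted p of 0.05, where 0.646% of all tested genes did, 0.478% higher and 0.169% lower. Without adjustment the p of 1 of them, Hsd17b7, was under 0.05, as for 11.5% of all tested genes. DESeq2 and limma voom with sample weights each called 1, again Hsd17b7, where they called 2.84% and 2.14% of all tested genes. Nothing is read from these counts, since the genes were picked with this comparison known.

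Most Hsd17b7 reads went to a single transcript in both genotypes. Hsd17b7-201, the full-length coding transcript, took 96.1 to 98.0% of the gene's estimated reads in KO and 95.6 to 98.8% in WT. Its reads were 207, 162 and 148 in KO against 77.5, 109, 100.4 and 97.8 in WT. The shorter coding transcript Hsd17b7-202 had at most 1.37 reads in any library. The difference in the gene's level was thus a difference in its main transcript.

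The enzymes of the mevalonate and isoprenoid steps overlapped between KO and WT. Hmgcs1, the cytosolic synthase that joins acetyl-CoA and acetoacetyl-CoA into HMG-CoA, was at 25.8, 31.0 and 33.6 CPM in KO and at 27.2, 28.3, 27.0 and 28.5 CPM in WT. The WT libraries lay within the range of the KO libraries, and their mean was 27.8 ± 0.758 CPM against 30.1 ± 3.97 CPM in KO. As for each gene below, the log2 fold change is given with its SE, here 0.12 ± 0.10. Idi1, the isomerase that makes the activated isoprenoid unit dimethylallyl diphosphate, was at 27.1, 35.9 and 30.5 CPM in KO and 34.7, 35.4, 34.2 and 29.9 CPM in WT, a log2 fold change of -0.11 ± 0.11. Fdps joins such units into farnesyl diphosphate, the branch point to sterols, prenylated proteins, dolichol and ubiquinone. Its level was 31.3, 48.0 and 42.1 CPM in KO and 34.4, 45.1, 40.7 and 35.5 CPM in WT, a log2 fold change of 0.05 ± 0.15. For Idi1 and Fdps, as for Hmgcs1, KO library 1 was the lowest of all 7. KO library 2 was the highest for Idi1 and Fdps, and KO library 3 for Hmgcs1.

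The genes of the steps committed to sterols overlapped between the genotypes as well. Fdft1, squalene synthase, was at 31.9, 41.4 and 26.7 CPM in KO and 42.5, 29.8, 33.5 and 30.4 CPM in WT, a log2 fold change of -0.03 ± 0.17. Its highest library was WT library 1 and its lowest KO library 3, an order that none of the other 7 genes showed. Sqle, squalene epoxidase, a rate-limiting enzyme that takes the first oxygen into the molecule, was at 13.6, 22.2 and 14.3 CPM in KO and 17.4, 20, 16.2 and 16.4 CPM in WT, a log2 fold change of -0.07 ± 0.18. Cyp51, the cytochrome P450 that removes the C14 methyl group of lanosterol, was at 12.4, 20.3 and 17.6 CPM in KO and 14.5, 19.0, 17.8 and 16.0 CPM in WT, a log2 fold change of 0.00 ± 0.17. For Sqle and Cyp51 the lowest and the highest of the 7 libraries were both KO, libraries 1 and 2.

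Insig1, the regulator, was at 20.3, 30.8 and 22.4 CPM in KO and 19.7, 24.0, 24.5 and 18.9 CPM in WT. Its means were 24.5 ± 5.54 and 21.8 ± 2.91 CPM, and its log2 fold change of 0.17 ± 0.16 was the highest of the 7 genes other than Hsd17b7. KO library 2 was above all WT libraries, and KO libraries 1 and 3 lay within them.

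Hmgcs1 and Fdft1 divided their reads between 2 coding transcripts each, in shares that varied between libraries and overlapped between genotypes. Hmgcs1-202 took 12.7, 24.2 and 14.8% of the gene's estimated reads in KO and 4.14, 14.7, 11.1 and 13.1% in WT, most of the remainder going to Hmgcs1-201. Fdft1-204 took 36.9, 32.1 and 24.6% in KO and 19.5, 30.8, 25.9 and 27.9% in WT. WT library 1 had the lowest share of both. These shares are estimates from Salmon's model, which divides reads that fit more than one transcript.

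Per length, Fdps was the most abundant of the 8 and Hsd17b7 the least. Mean TPM levels in WT were 33.4 ± 6.38 for Fdps, 11.6 ± 1.75 for Idi1, 10.7 ± 1.03 for Fdft1, 8.94 ± 1.47 for Hmgcs1, 8.61 ± 2.01 for Insig1, 6.12 ± 0.923 for Sqle, 4.21 ± 0.917 for Cyp51 and 1.25 ± 0.253 for Hsd17b7 (SD, n = 4). Idi1 and Fdft1, and Hmgcs1 and Insig1, were neighbours in this order that lay closer than their SD. In KO the top and the bottom of the order were the same, Fdps at 38.0 ± 6.67 and Hsd17b7 at 2.28 ± 0.358 TPM (SD, n = 3). The higher level of Hsd17b7 in KO thus still lay under that of Cyp51, at 4.60 ± 0.936 TPM (SD, n = 3).

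In KO library 1 the rest of the pathway went the other way from Hsd17b7. In KO library 2 Hsd17b7 and the median of the other 7 both lay above the WT mean, Hsd17b7 by more. In KO library 3 Hsd17b7 lay above it, while the median of the other 7 lay among the medians of the WT libraries (-0.12 to 0.15). On a log2 scale, as log2(CPM + 0.5) minus the WT mean, Hsd17b7 stood at 0.95, 0.68 and 0.45 in KO libraries 1 to 3, while the median of the other 7 stood at -0.30, 0.29 and 0.05. KO library 1, the highest of all for Hsd17b7, had all 7 other genes under their WT mean and was the lowest library for 5 of them. KO library 2 had 0 of the 7 under the WT mean and was the highest library for 5. KO library 3 had 3 of the 7 under the WT mean. Hsd17b7 exceeded the median of the others by 1.25, 0.38 and 0.40 in the KO libraries, and by -0.13, 0.00, 0.02 and 0.08 in the WT libraries. In WT libraries 2 to 4 it moved within 0.08 of that median.

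**Figure D2:**
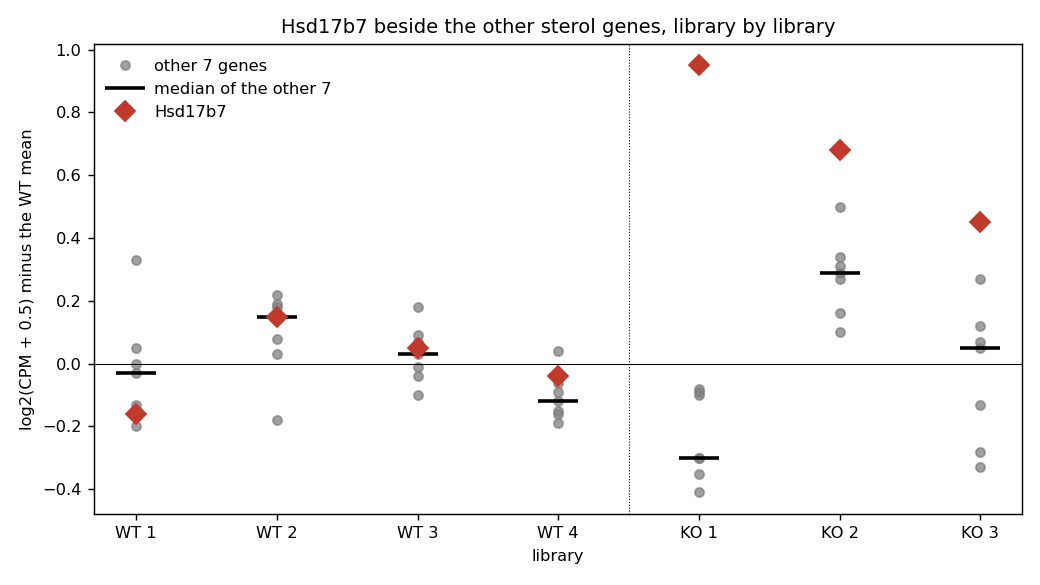
Difference from the WT mean in log2(CPM + 0.5) (vertical axis) for Hsd17b7 (red diamonds), the other 7 genes (grey points) and their median (black dashes) in each library. Hsd17b7 is above all 7 others in each KO library, by 1.25 over their median in KO library 1, and lies among them in the WT libraries.

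Over the genotypes, the 7 genes other than Hsd17b7 had log2 fold changes of -0.11 to 0.17 with a median of 0.00, 3 above 0 and 4 below. The median of all tested genes was -0.01, and 47.3% of them were above 0. The median of the 7 is 0.76 below the value of Hsd17b7. Without KO library 1 it was 0.17, with 6 of the 7 above 0, and the gap to Hsd17b7 was 0.44. Leaving out KO library 1 gave log2 fold changes of 0.22 ± 0.08 for Hmgcs1, 0.21 ± 0.13 for Fdps, 0.17 ± 0.13 for Cyp51 and 0.29 ± 0.16 for Insig1. Sqle was then at 0.06 ± 0.18, Idi1 at -0.02 ± 0.11 and Fdft1 at 0.00 ± 0.20. The size of the gap therefore depends on that library, while its direction was kept in each of the 18 other fits, where it lay between 0.44 and 0.93.

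The remaining enzymes of cholesterol synthesis showed no change past the test. Of 14 genes listed, all tested, 0 passed edgeR's test, 0 had an unadjusted p under 0.05 and 0 were called by DESeq2 or voom. Their log2 fold changes ran from -0.15 to 0.14 with a median of 0.01, and 8 were above 0. Among them were Acat2 (-0.15 ± 0.10), which makes acetoacetyl-CoA, Mvd (-0.14 ± 0.11), the decarboxylase before Idi1 and Mvk (0.14 ± 0.12), mevalonate kinase. Adjusted p by edgeR was between 0.632 and 0.722 for these 3. The steps on either side of Hsd17b7 are Nsdhl, which makes its substrate, and Ebp, the isomerase after it. Nsdhl was at 12.6 ± 2.08 CPM in KO against 11.8 ± 1.48 CPM in WT, and Ebp at 38.0 ± 3.71 against 36.8 ± 0.482 CPM. Both were named after their values had been seen, as was Srebf2 below.

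**Figure D3:**
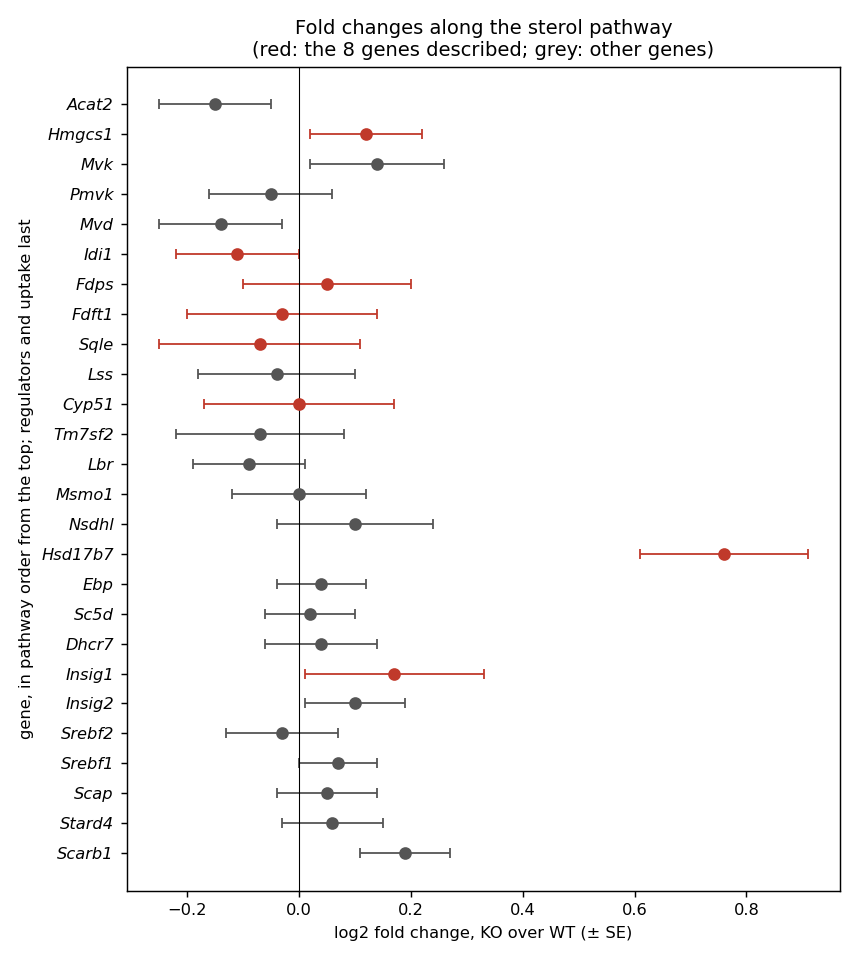
log2 fold change of KO over WT with its SE (horizontal axis) for genes in the order of the pathway, followed by regulators and uptake genes; red marks the 8 genes described and grey the others. Hsd17b7 is at 0.76, with the other synthesis enzymes drawn between -0.15 and 0.14 and the regulators and uptake genes drawn between -0.03 and 0.19. Not every listed gene is drawn, and some regulators and uptake genes left out, such as Rnf145 and Lipa, had wider fold changes than those drawn.

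Genes that control SREBP or take up cholesterol did not pass the test either. Of 10 control genes 0 passed, 7 were above 0 and the median log2 fold change was 0.05. Srebf2 was at 110 ± 12.7 CPM in KO against 113 ± 10.3 CPM in WT. Rnf145, a ubiquitin ligase that acts on the pathway when sterol is high, was at 110, 105 and 94.9 CPM in KO and 129, 123, 119 and 117 CPM in WT. Its libraries did not overlap, and it stood at -0.24 ± 0.07 on the log2 fold scale (edgeR's adjusted p = 0.257). Insig2, which retains SREBP as Insig1 does, and Srebf1, which encodes SREBP-1, had log2 fold changes of 0.10 and 0.07 (adjusted p = 0.733 and 0.752). Of 9 uptake genes 8 were tested and 0 passed, with a median of 0.04. Scarb1, a receptor for high-density lipoprotein, Lipa, the lysosomal lipase, and Stard4, a sterol carrier, had log2 fold changes of 0.19, -0.25 and 0.06 (adjusted p = 0.448 to 0.85).

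In the genes of oxysterols, efflux and fatty acids, 0 passed. In each of these lists 1 gene had libraries that did not overlap, Cyp27a1 among 10 tested and Scd1 among 9, where 12.9% of all tested genes did so. Of 11 genes of the oxysterol and efflux list 10 were tested, 8 of them below 0, with a median of -0.09. Cyp27a1, the mitochondrial sterol 27-hydroxylase, was at 10.6, 8.26 and 11.4 CPM in KO and 14.6, 15.3, 14.8 and 14.0 CPM in WT, without overlap. This was -0.54 ± 0.12 on the log2 fold scale (edgeR's adjusted p = 0.11). DESeq2 and voom called it lower. Cyp7b1, Nr1h3 and Nceh1 had log2 fold changes of 0.81, -0.24 and -0.12 (adjusted p = 0.687 to 0.765), and Ch25h, which makes 25-hydroxycholesterol, had too few reads to be tested. Of 9 fatty acid genes under SREBP 0 passed, with a median of 0.10. Scd1, which makes monounsaturated fatty acids, stood lower in each KO library (37.3, 24.7 and 33.8 CPM) than in each WT library (42.9, 42.3, 65.5 and 59.7 CPM), or -0.72 ± 0.20 on the log2 fold scale (edgeR's adjusted p = 0.201). DESeq2 called it lower. Elovl6, Scd2 and Acaca were at 0.24, 0.23 and 0.10 on the log2 fold scale (adjusted p = 0.557 to 0.685).

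The branches that leave the pathway before squalene were also without a call. Of 8 genes for prenylation, dolichol and ubiquinone 0 passed, and 7 were below 0, with a median of -0.08. Fntb, Pdss1, Coq2 and Ggps1 had log2 fold changes of -0.20, -0.17, -0.12 and -0.10 (adjusted p = 0.603 to 0.766). Over all 7 of these other lists, family included, 0 of 65 tested genes passed edgeR's test against 0.646% of all tested genes. Their median log2 fold change was -0.01, and 5 of the 65 had an unadjusted p under 0.05, where 11.5% of all tested genes did. DESeq2 called 2 of them (Cyp27a1 and Scd1) and voom 1 (Cyp27a1), where they called 2.84% and 2.14% of all tested genes. Nothing is read from these counts.

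Other members of the 17-beta-hydroxysteroid dehydrogenase family, named for the same kind of reaction, were not called. Of 10 listed, 6 had enough reads and 0 passed, with a median log2 fold change of 0.03. Hsd17b12, which works in the elongation of fatty acids, was at 38.1 ± 3.44 CPM in KO against 30.9 ± 4.20 CPM in WT, without overlap between the libraries. This was 0.30 ± 0.12 on the log2 fold scale (edgeR's adjusted p = 0.394). Hsd17b4, Hsd17b14 and Hsd17b1 had log2 fold changes of 0.07, 0.09 and -0.08 (adjusted p = 0.783 to 0.971). Hsd17b3 and Hsd17b6 had 0 reads in all libraries.

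The genes next to Hsd17b7 on chromosome 1 lay on both sides of 0. On the lower side the nearest tested genes were Rgs4 and Rgs5, regulators of G-protein signalling, and the kinetochore gene Nuf2, with log2 fold changes of 0.24 ± 0.10, -0.09 ± 0.15 and -0.01 ± 0.12. On the side of Aim2 they were Ddr2, a collagen receptor 0.0228 Mb away, Uap1, which makes UDP-N-acetylglucosamine, and the kinase gene Uhmk1. Ddr2 was at -0.13 ± 0.10 and Uhmk1 at -0.20 ± 0.06 (edgeR's adjusted p = 0.704 and 0.248). Uap1 was lower in KO, at 41.3 CPM against 54.3 CPM in WT (-0.39 ± 0.07 on the log2 fold scale, edgeR's adjusted p = 0.049). That call was lost without any 1 of the 7 libraries (edgeR's adjusted p = 0.0518 to 0.16). DESeq2 and voom also called Uap1 lower, while the fits with the length offset, the replicate block and TPM did not call it. Within 1 Mb of Hsd17b7, 13 other genes were tested, of which 4 had a log2 fold change above 0. In 6 of them, 3 higher and 3 lower, the libraries did not overlap. That is 46.2%, against 12.7% of the genes outside a window of 10 Mb around Aim2. Rgs4 was among those higher, with Gm7694 (0.62) and Atf6 (0.24), a sensor of unfolded protein, and Fcrla (-0.72), a B-cell gene, was lower, as were Uap1 and Uhmk1. Gm7694 overlaps Nos1ap on the same strand, so reads of this pair are uncertain. Gm7694, Atf6 and Fcrla were named after their values had been seen.

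Hsd17b7 stood at the edge of a stretch in which fold changes were wide on both sides of 0. In the 5 Mb above it, toward Aim2, 79 genes other than Aim2 were tested, and the median size of their log2 fold change was 0.39. Of these 6 were called higher and 4 lower (12.7%), and 49.4% had libraries that did not overlap. In the 5 Mb below it, 23 genes were tested, with a median size of 0.09, 0 called and 17.4% without overlap. Genes elsewhere had a median size of 0.11, with 0.569% called. These 5 Mb windows were set after the values had been seen, and no test was made of them. Within 10 Mb of Aim2, Hsd17b7 included, 11 of 168 tested genes were called (6.55%), 6 higher and 5 lower. For Hsd17b7, a position near the altered locus and the loss of Aim2 cannot be told apart in these libraries.

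**Figure D4:**
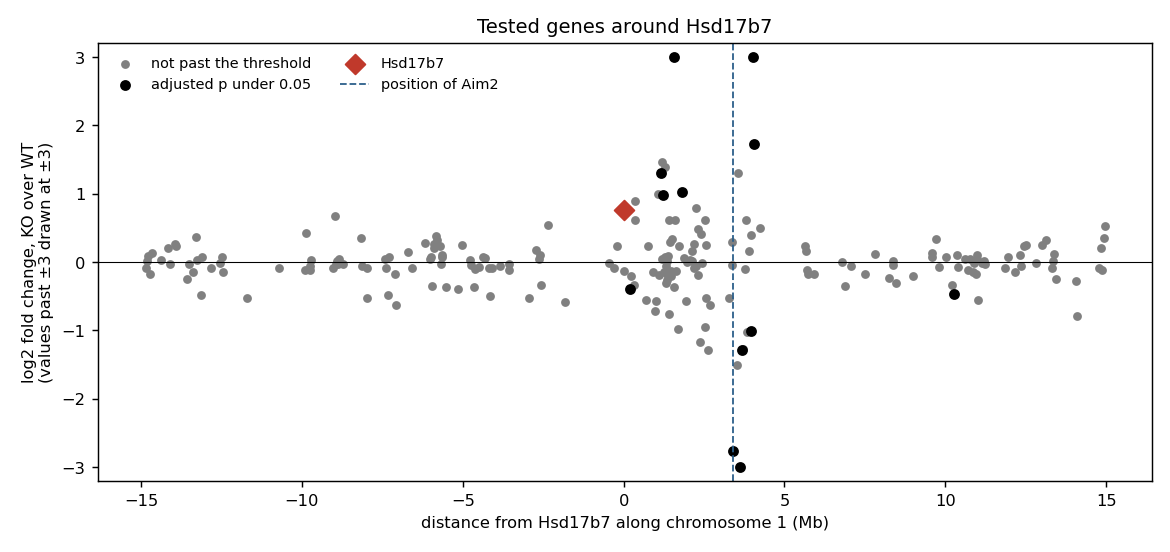
log2 fold change of KO over WT (vertical axis, values past 3 drawn at the edge) for tested genes by their distance in Mb from Hsd17b7 along chromosome 1; black points passed an adjusted p of 0.05, and the dashed line marks Aim2. Hsd17b7 (red, 0.76) lies at the left end of a run of genes with wide fold changes that reaches past Aim2 at 3.4 Mb, and of the 23 tested genes in the 5 Mb to its left 0 were called.

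Genes whose pattern over the 7 libraries was most like that of Hsd17b7 came from other chromosomes. Among 10865 genes whose mean was 5 CPM or more, the 5 with the highest Pearson r of log2(CPM + 0.5) were Ctbs (0.98), Igkv3-2 (0.98), Sbno2 (0.974), Znfx1 (0.968) and M6pr (0.966). All 5 were higher in KO without overlap, but they were picked for likeness to Hsd17b7, which has that trait. Sequence shared within the immunoglobulin family makes reads of Igkv3-2 uncertain. For the mean of the other 7 members they were Ptrhd1 (0.976), Grpel1 (0.948), Tfe3 (0.938), Fbf1 (0.921) and Bid (0.915), with log2 fold changes between 0.00 and 0.08. Hsd17b7 and the mean of the other 7 had an r of -0.08 with each other. The 2 sets had no gene in common, which was bound to follow from that low r. With 7 libraries and so many genes such values are a description only.

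Markers of other marrow cells differed between the genotypes beside these results. The 8 B-lineage markers summed to 142 to 224 CPM in KO and 304 to 492 CPM in WT. All 8 had a log2 fold change below 0, as did all 8 erythroid markers (medians -0.97 and -0.12). Lower in KO without overlap were 6 B-lineage markers, 1 erythroid and 1 stromal, where 5.94% of all tested genes were. Higher without overlap were 4 neutrophil and 3 monocyte and macrophage markers, where 6.95% of all tested genes were. The 8 neutrophil markers summed to 17490 to 18842 CPM in KO and 12946 to 17163 CPM in WT, and the 8 monocyte and macrophage markers to 1439 to 1616 and 929 to 1435 CPM. Erythroid markers (5272 to 10049 and 7697 to 10082 CPM), proliferation genes (2539 to 3468 and 3056 to 4194 CPM) and stromal and adipocyte genes (2590 to 2675 and 2670 to 4171 CPM) overlapped between genotypes. No marker of these 6 lists was at 0 in all libraries, and edgeR called 0 of their tested genes. The part of cell composition in the level of Hsd17b7, or in the spread of the other 7 genes, was not tested.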

How the data were processed

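RNA of 3 KO and 4 WT marrow libraries was prepared as strand-specific mRNA libraries, per the labels' protocols. FastQC 0.11.9, Salmon 1.7.0, DESeq2 and build GRCm38.p6 are named, per the submitters' processing notes; the annotation release and the options used are not given in the sources used here. Per transcript, the authors deposited estimated counts and TPM values without further normalization. Transcript lengths are deposited beside them.

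The 116546 transcripts were joined to GENCODE M21 genes by identifier (192 without the version; 569 unmatched, at most 0.0662% of reads). Estimated counts of a gene's transcripts were added and rounded to whole numbers. edgeR 4.0.16 (R 4.3.3) was run with filterByExpr (14238 genes kept), TMM factors (0.918 to 1.06), the quasi-likelihood test and Benjamini-Hochberg adjustment over all genes, threshold 0.05. SE is the absolute log2 fold change over the root of F. The steps were tested on simulated data.

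Members, lists and tests were chosen with earlier results of these data known. Named genes are the 8 members, the 4 with the smallest p of each pathway list, 3 neighbours on each side of Hsd17b7 and 5 most alike; a few pathway genes are counted in their lists but not reported here one by one. Marker lists are given as counts and sums. Alternatives were other scalings, filters, tools (DESeq2 1.42.0, limma 3.58.1), TPM, a length offset, the sample number as a block, and each library left out. Libraries of a group differed by more than sampling noise (chi-square per degree of freedom 9.52 to 58.8).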

Additional observations from a re-analysis of the deposited data

Results flagged for a closer look

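Among 42 named genes, each examined over the 4 WT libraries, 3 had 1 library far from the others, where chance gives about 1 in 20. None of the 8 sterol genes was among them. WT library 1 was far below the others for Ggps1 (18.5 CPM), Hsd17b12 (24.7 CPM) and Nceh1 (21.4 CPM). WT library 1 is also the library with the largest share of haemoglobin reads (19.9%), and the part of that share in these values was not tested.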

How the results depend on the processing

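Hsd17b7 kept a log2 fold change above 0 in all 18 alternatives (0.55 to 0.87), lowest with limma on log2(TPM + 1) at 0.55, and was called in 2 of them. The 8 sterol genes held 1 call, Hsd17b7, with DESeq2, 1 with voom and 1 at an adjusted p of 0.1, and 0 in the others. The median of the other 7 went from -0.16 to 0.17 as libraries were left out. Of these 7, only Hmgcs1 kept its sign in all 18 alternatives (0.03 to 0.23). Insig1 (-0.03 to 0.32) and Fdps (-0.09 to 0.21) were above 0 in 17, and Sqle, Idi1, Fdft1 and Cyp51 in 2 to 7. Other pathway genes held 2 calls with DESeq2 and 1 with voom.

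Counts of calls moved more. Over all genes, where 92 were called, DESeq2 called 405, voom 305, the effective length offset 55, limma on log2(TPM + 0.1) 49 and on log2(TPM + 1) 50, and an adjusted p of 0.1 gave 198. Leaving out 1 library gave 17 (without WT library 2) to 65. Within 10 Mb of Aim2, where 11 were called, these settings called 29, 23, 5, 6 and 6, and leaving out 1 library gave 3 to 10. With TPM the median over all genes was 0.13 and 0.10 on the log2 fold scale, against -0.01.

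Some small log2 fold changes changed sign. With voom Hsd17b14 was at -0.33, Nuf2 at 0.12 and Srebf2 at 0.00, and with the length offset Nuf2 at 0.03. On log2(TPM + 0.1) Acat2 and Pdss1 were at 0.01, Coq2 and Ggps1 at 0.05, Ddr2 and Hsd17b1 at 0.06, Nceh1 at 0.04, Nuf2 at 0.16, Rgs5 at 0.12 and Srebf2 at 0.09. On log2(TPM + 1) Acat2 was at 0.00, Pdss1 at 0.01, Coq2 and Ggps1 at 0.05, Ddr2, Hsd17b1 and Nceh1 at 0.03, Nuf2 at 0.16, Rgs5 at 0.10 and Srebf2 at 0.09. Leaving out 1 library gave ranges on both sides of 0 or reaching it for Rgs5 -0.24 to 0.04, Srebf2 -0.13 to 0.02, Nsdhl -0.05 to 0.19, Ebp -0.02 to 0.12, Hsd17b14 -0.61 to 0.50, Nuf2 -0.10 to 0.11 and Hsd17b1 -0.16 to 0.05. The cause of these changes was not tested.

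With the sample number as a replicate block 21 genes were called, 0 of the 8 sterol genes and 2 within 10 Mb of Aim2, and Hsd17b7 was at 0.73. These are the numbers of the sample titles, by which deviations of same-numbered libraries had correlations of 0.124, -0.041 and -0.271 and WT library 4 has no partner. The deposited files number WT libraries 2 to 4 differently; by those numbers KO library 3 would go with WT library 2 (correlation 0.23) and KO library 2 with none, a pairing that was not fitted. The numbers are therefore not known to pair libraries.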
